A study of Mus musculus with 2 samples.

Results

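The 39 Hox genes of the mouse were described here, out of 21887 protein-coding genes counted on the same libraries. They were taken by symbol (Hoxa, Hoxb, Hoxc or Hoxd and a number) from RefSeq's annotation of GRCm38.p6 (mm10). Reads were counted over the gene and the 2 kb to its left and right, and the windows were merged for sums over a cluster. The Hoxa cluster on chromosome 6 holds 11 of them, the Hoxb cluster on chromosome 11 holds 10, the Hoxc cluster on chromosome 15 holds 9 and the Hoxd cluster on chromosome 2 holds 9. The merged windows cover 383.44 kb, and 29 of the 39 windows overlap that of a neighbour, so members share reads.

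The measurement was END-seq, which captures and sequences the ends of broken DNA in cells embedded in agarose, so that each read counts 1 break end at 1 base and on 1 strand. Both libraries came from CD43-negative B cells of the spleen of mice aged 4 to 8 weeks. The S-phase library came from cells activated in a culture of 24 to 28 h by IL-4 (25 ng/mL) and anti-CD40 (1 µg/mL), and the G1 library from quiescent cells kept in culture without them. Both carry the prefix ATR+c in their names, which the labels do not explain, and neither strain nor genotype of the mice is given in the labels.

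Hox genes encode homeodomain transcription factors that give cells of the embryo their position along the head-to-tail axis. They stand side by side in clusters, and their order on the chromosome follows the order of their use in the body, from the low-numbered genes of the hindbrain to the high-numbered genes of the limbs and the tail end. Outside their domains the clusters are kept off by Polycomb complexes, and in blood some of them, such as Hoxa9 and Hoxb4, act in stem and progenitor cells. No expression was measured in these libraries, so the description of the genes as silent was not tested. The description as rich in CpG was checked only at promoters, not over the clusters. The RefSeq promoter table holds 24 promoters of 22 Hox genes, with 3 from Hoxb and 1 from Hoxc. Of the 24, 11 had a GC content of at least 50% and a CpG content of at least 0.6 of that expected from their bases. That is 45.8%, against 45.1% of 21263 promoters of protein-coding genes. The median GC content was 57.7% in the Hox promoters and 56.3% in all of them.

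The promoters of 4 Hox genes and 2 other genes are shown because CpG-rich promoters elsewhere collected break ends and those of the Hox genes held few. They run 5′ to 3′ from 250 bases before to 50 bases after the start of the gene and come from RefSeq (GRCm38.p6). Capitals mark every CG, the dinucleotide searched for, which reads the same on both strands. All 9600 CpG-rich promoters and 91.6% of the CpG-poor promoters of protein-coding genes held at least 1. The 4 Hox promoters are those of Hoxa13 (chr6:52260831-52261130, minus strand, 45 CG), Hoxd13 (chr2:74667975-74668274, plus strand, 37 CG), Hoxd1 (chr2:74762730-74763029, plus strand, 29 CG) and Hoxd10 (chr2:74691641-74691940, plus strand, 22 CG). The last 2 sequences are a contrast: Lnpk (chr2:74578899-74579198, minus strand, 25 CG), a neighbour of the Hoxd cluster, and Ezh2 (chr6:47594981-47595280, minus strand, 31 CG). All 6 were chosen after their values were seen.
Hoxa13: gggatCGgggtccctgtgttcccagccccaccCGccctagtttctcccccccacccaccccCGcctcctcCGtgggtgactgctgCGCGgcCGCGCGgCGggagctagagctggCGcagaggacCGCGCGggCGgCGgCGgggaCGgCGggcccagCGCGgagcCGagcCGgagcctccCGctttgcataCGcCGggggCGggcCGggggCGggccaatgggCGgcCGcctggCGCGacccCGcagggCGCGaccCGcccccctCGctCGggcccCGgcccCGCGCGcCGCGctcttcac
Hoxd13: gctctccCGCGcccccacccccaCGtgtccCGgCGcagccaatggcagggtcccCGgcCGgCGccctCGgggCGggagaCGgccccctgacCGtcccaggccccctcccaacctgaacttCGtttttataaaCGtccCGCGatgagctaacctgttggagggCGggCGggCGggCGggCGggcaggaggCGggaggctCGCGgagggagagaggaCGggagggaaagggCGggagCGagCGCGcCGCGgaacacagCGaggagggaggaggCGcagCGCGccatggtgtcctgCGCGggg
Hoxd1: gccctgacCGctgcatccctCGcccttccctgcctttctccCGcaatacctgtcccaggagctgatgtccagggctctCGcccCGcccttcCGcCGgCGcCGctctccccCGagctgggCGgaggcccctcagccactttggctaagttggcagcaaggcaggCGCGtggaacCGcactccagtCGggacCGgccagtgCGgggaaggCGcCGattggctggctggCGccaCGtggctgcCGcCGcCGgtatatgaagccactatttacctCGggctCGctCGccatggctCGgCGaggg
Hoxd10: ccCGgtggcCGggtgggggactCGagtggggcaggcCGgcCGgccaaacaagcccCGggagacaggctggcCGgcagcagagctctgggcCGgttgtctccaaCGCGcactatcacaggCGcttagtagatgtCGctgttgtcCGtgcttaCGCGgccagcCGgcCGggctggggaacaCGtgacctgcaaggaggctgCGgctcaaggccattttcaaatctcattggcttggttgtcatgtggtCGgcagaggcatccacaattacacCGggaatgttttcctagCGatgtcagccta
Lnpk: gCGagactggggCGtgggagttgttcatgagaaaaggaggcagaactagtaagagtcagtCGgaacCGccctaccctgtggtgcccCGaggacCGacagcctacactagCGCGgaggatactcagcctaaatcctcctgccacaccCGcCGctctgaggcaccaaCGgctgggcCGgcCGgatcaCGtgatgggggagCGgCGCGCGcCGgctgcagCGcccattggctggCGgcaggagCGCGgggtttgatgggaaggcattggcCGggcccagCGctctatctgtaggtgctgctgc
Ezh2: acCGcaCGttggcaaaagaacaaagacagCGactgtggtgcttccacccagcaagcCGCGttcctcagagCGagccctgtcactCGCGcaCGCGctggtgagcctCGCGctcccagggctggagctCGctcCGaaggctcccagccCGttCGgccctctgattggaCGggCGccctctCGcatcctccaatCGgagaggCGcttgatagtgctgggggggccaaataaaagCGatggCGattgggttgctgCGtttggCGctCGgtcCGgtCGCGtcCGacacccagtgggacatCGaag

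Over these 300 bases the Hox promoters held few reads. Such counts are common in so short a window. CpG-poor promoters of protein-coding genes had a median of 2 reads in the S-phase and 1 in the G1 library over it. Of those promoters, 22.0% had no read in either library. Hoxa13, which patterns the digits and the genital tract, had 3 reads in the S-phase and 2 in the G1 library. Hoxd13, a gene of digit formation, and Hoxd1, expressed in pain-sensing neurons, had 0 reads in both. Hoxd10, a gene of the lumbar spinal cord and hindlimb, had 7 reads in the S-phase and 0 in the G1 library. A count of 0 allows up to 3 reads, or 0.146 RPM (reads per 1000000 reads on chromosomes 1-19) in the S-phase and 0.112 in the G1 library, from counting error alone. The promoter of Lnpk, which encodes a protein of the endoplasmic reticulum, had 98 reads on 18 positions in the S-phase library, and 93 on 11 positions in that of G1, with fewer CG than Hoxa13. That of Ezh2, the methyltransferase of the Polycomb complex PRC2, had 205 and 149. Lnpk and Ezh2 are not typical, as both lay high among CpG-rich promoters of protein-coding genes. Those had a median of 14 reads in the S-phase and 10 in the G1 library, and a 90th percentile of 105 and 83.

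The CpG-rich Hox promoters as a set also held few reads. The 11 of them held 22 reads in the S-phase and 4 in the G1 library, a mean of 2.00 and 0.364 reads each. CpG-rich promoters of protein-coding genes held a mean of 38.3 and 31.1 reads and a median of 14 and 10. Of the 11, 5 had no read in either library (45.5%), against 8.90% of the CpG-rich promoters of protein-coding genes. The highest of the 11 held 7 reads in both libraries together, and 26.1% of the CpG-rich promoters of protein-coding genes had at most that many. Of the 11, 10 held at least 20 CG, as did 7567 of the 9600.

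A wider window gave the same order. Within 1 kb on each side of the start, the 24 Hox promoters had 0.270 RPKM (reads per kb and per 1000000 reads on chromosomes 1-19) in the S-phase library (266 reads, 95% interval 0.238 to 0.304) and 0.218 in the G1 library (282 reads, 0.194 to 0.246). CpG-rich promoters of protein-coding genes had 1.58 and 1.06, CpG-poor promoters 0.531 and 0.449, and promoters of widely active genes such as Pfn1 and Srsf2 3.36 and 2.19. The Hox level was thus below that of the CpG-poor promoters in both libraries. Within the Hox genes, the 11 CpG-rich promoters had 0.219 and 0.179 and the other 13 promoters had 0.313 and 0.252, so the level was lower at the promoters with more CpG. In the S-phase library the intervals, 0.178 to 0.267 and 0.267 to 0.364, met at their edges. The other homeobox genes of development had 0.308 (0.281 to 0.337) and 0.273 (0.251 to 0.297) at their promoters. Their interval overlapped that of the Hox promoters in the S-phase library and lay above it in the G1 library. With 500 bases on each side they had 0.312 and 0.316, and the Hox promoters 0.325 and 0.197. With 2 kb on each side they had 0.323 and 0.258, and the Hox promoters 0.297 and 0.256. The gap in the G1 library thus depended on the window. The promoters of Polycomb genes had 1.66 and 0.969.

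In the 500 bases before the start, where the CpG-rich promoters of protein-coding genes reached 4.16 RPKM in the S-phase and 2.62 in the G1 library, the Hox promoters had 0.247 and 0.177. CpG-poor promoters had 0.775 and 0.615 there. In the 500 bases after the start the Hox promoters had 0.402 (95% interval 0.326 to 0.489) and 0.217 (0.169 to 0.274). In the bins farther out, to 5 kb, their level ran from 0.162 to 0.527 in the S-phase and from 0.127 to 0.415 in the G1 library, so both bins at the start lay within that range.

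**Figure D1:**
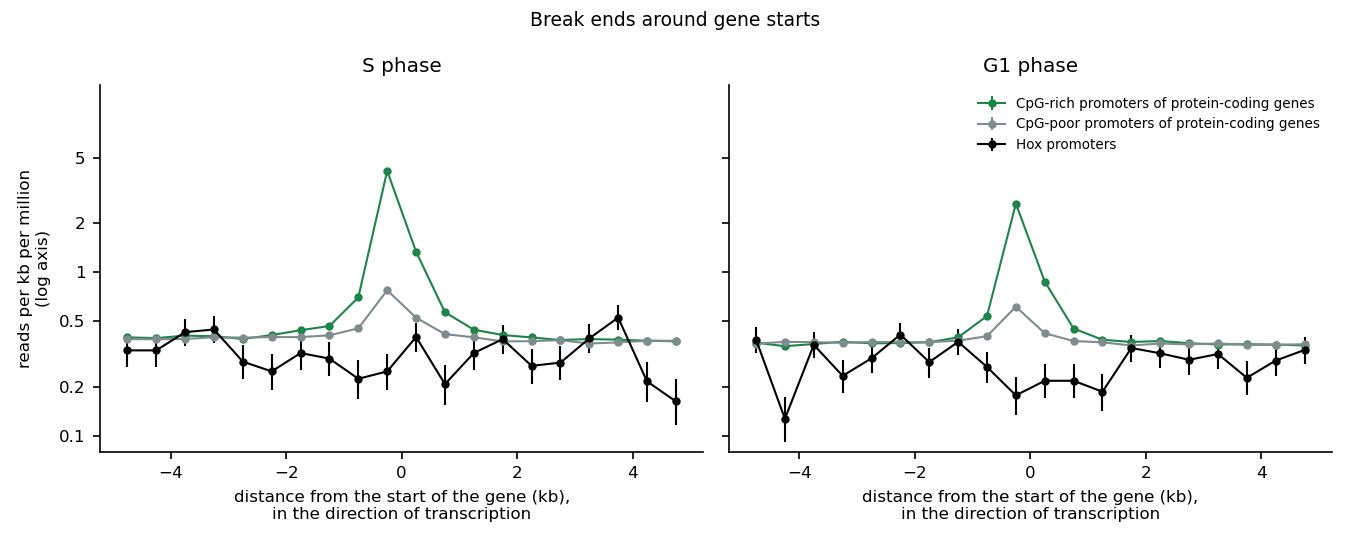
Break ends around gene starts in 500-base bins from 5 kb before to 5 kb after the start, as RPKM on a log axis, in the S-phase library (left) and the G1 library (right). Bars are exact 95% Poisson intervals. CpG-rich promoters rise to 4.16 and 2.62 before the start, whereas the 24 Hox promoters are at 0.247 and 0.177 there.

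The ratio of the S-phase library to the G1 library at Hox promoters was 1.23 (95% interval 1.04 to 1.47), against 1.49 at CpG-rich and 1.18 at CpG-poor promoters of protein-coding genes. It rose to 1.65 (1.30 to 2.10, from 160 and 127 reads) with 500 bases on each side, against 1.56 and 1.245, so that it passed from below to above that of the CpG-rich promoters. These promoters belong to 22 of the 39 genes, 9 in Hoxa, 3 in Hoxb, 1 in Hoxc and 9 in Hoxd. With the ends of all 39 gene models as starts, taking the strand from the listed members of the cluster, the levels were 0.316 and 0.245 and the ratio was 1.29 (1.14 to 1.46).

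The S-phase library held 21997695 reads, 20543572 of them on chromosomes 1-19, and the G1 library held 28933109 and 26889564. Reads were stacked, with 2.84 and 3.84 reads per covered position and strand, and in the Hox windows with 2.80 (2565 reads on 915 positions) and 4.14 (2835 reads on 684 positions). Stacked reads may be copies of 1 molecule, so all intervals cover counting error only and are too narrow, and ratios are also given over covered positions. With 1 library per group there was no replicate check and no test, and differences are between these libraries, not between conditions.

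Over gene windows, too, the Hox clusters lay low in break ends. The merged windows had 0.326 RPKM in the S-phase library (95% interval 0.313 to 0.338) and 0.275 in the G1 library (0.265 to 0.285). The median protein-coding gene with at least 50 reads had 0.396 and 0.365, so the Hox windows stood at 0.821 and 0.754 of it. Of 100 kb windows of chromosomes 1-19, 17.5% had a lower level in the S-phase and 6.19% in the G1 library. Among the 667 such windows with at least 5 protein-coding genes, which are also dense in genes, those shares were 7.65% and 3.90%.

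The clusters ranged within narrow limits. Hoxa was highest with 0.357 in the S-phase (732 reads) and 0.293 in the G1 library (787 reads). Hoxc had 0.326 (633 reads) and 0.263 (669 reads), and Hoxb had 0.314 (642 reads) and 0.283 (757 reads). Hoxd was lowest with 0.303 (558 reads) and 0.258 (622 reads). The interval of Hoxa in the S-phase library, 0.332 to 0.384, did not reach that of Hoxd, 0.278 to 0.329, while the intervals of Hoxb, Hoxc and Hoxd overlapped in both libraries.

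Among single members, the level ran from 0.118 to 0.501 in the S-phase library, with a median of 0.325, and from 0.0845 to 0.503 in the G1 library, with a median of 0.266. In each library 32 of the 39 genes were below the median protein-coding gene, 28 of them in both. Hoxa4, a gene of the neck vertebrae, and Hoxc11, a gene of the hindlimb and sacral region, were among those above it in both. Hoxd1 was lowest in both libraries, with 15 reads in the S-phase and 14 in the G1 library over 6.16 kb. It was the only one of the 39 under 50 reads in both libraries together, and 38 genes went into the counts by ratio.

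**Figure D2:**
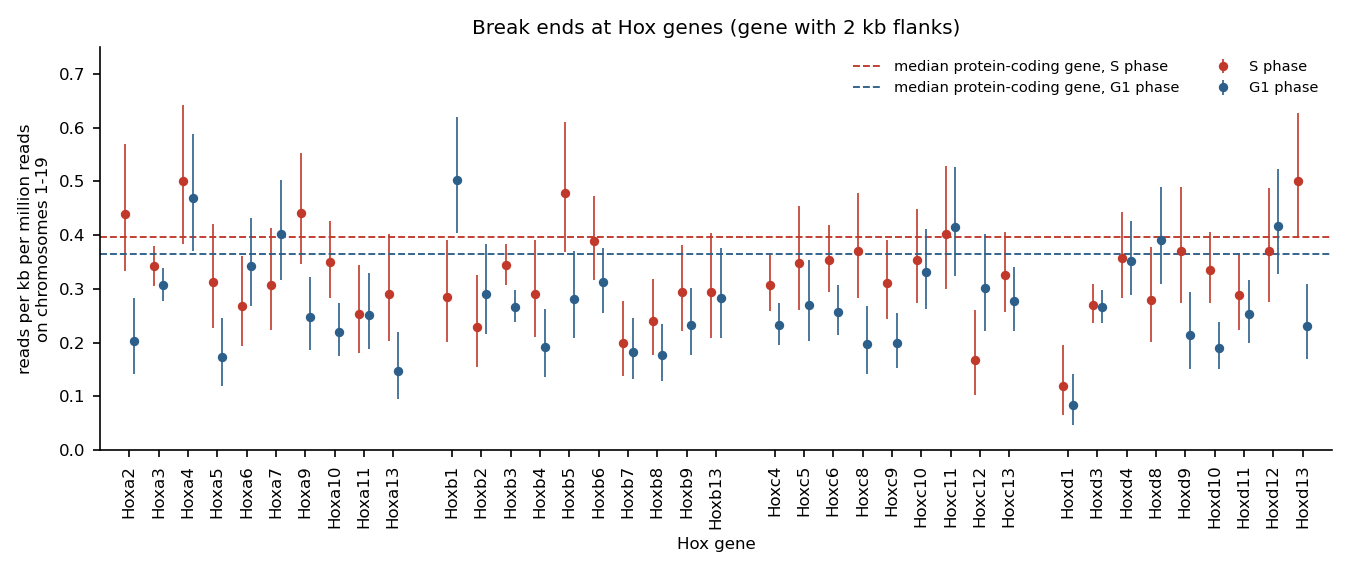
Level of break ends at the Hox genes (gene with 2 kb flanks, 1 of the 39 not shown), in RPKM, in the S-phase library (red) and the G1 library (blue) with exact 95% Poisson intervals. Dashed lines mark the median protein-coding gene, 0.396 and 0.365. In each library most points lie below its line.

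Between the libraries the clusters differed little. The ratio of the S-phase library to the G1 library was 1.18 over all Hox windows (95% interval 1.12 to 1.2497) by reads and 1.27 (1.15 to 1.41) by covered positions. The median protein-coding gene had a ratio of 1.10, and scaled to it the Hox ratio was 1.08 (1.02 to 1.14). Per cluster the ratio was 1.22 in Hoxa (1.10 to 1.35), 1.11 in Hoxb (0.998 to 1.23), 1.24 in Hoxc (1.11 to 1.38) and 1.17 in Hoxd (1.05 to 1.32). These intervals overlap, so the clusters were not told apart by counting error. The median 100 kb window with at least 5 protein-coding genes had a ratio of 1.14, and 59.1% of these windows had a ratio below that of the Hox windows.

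Over single genes the median log2 ratio (with a pseudocount of 1) was 0.27, against 0.14 over all 21374 protein-coding genes with at least 50 reads. The ratio was above 1 at 30 of 38 Hox genes (78.9%), against 66.8% of all genes. A ratio of at least 1.5 was found at 12 of 38 (31.6%), against 12.1% of all genes. Hox genes have few reads each, and among genes of 50 to 200 reads in both libraries together the share was 21.0%, beside 12 of the 32 Hox genes in that range (37.5%). A ratio of 1/1.5 or less was found at 2 of 38 (5.26%), against 4.36% of all genes and 13.4% of those of 50 to 200 reads. The 95% interval lay above 1 at 14 Hox genes (36.8%), against 36.6% of all genes, and below 1 at 2 (5.26%), against 11.1%. Among genes of 50 to 200 reads the interval lay above 1 at 11 of 32 Hox genes (34.4%), against 23.6%, and below 1 at 2 (6.25%), against 13.5%. The count of 12 was 6 of 22 without flanks (27.3%), against 11.9% of all genes. It was 6 of 39 with 5 kb flanks (15.4%), against 8.53%, and 7 of 27 at a minimum of 100 reads (25.9%), against 11.1%.

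Genes past 1.5-fold toward the S-phase library lay in all 4 clusters. The paralogs of group 9, which pattern the trunk and the lower back, were past it in 3 of the 4 clusters. Hoxa9, which is also active in blood progenitors and in leukaemia, had 75 reads in the S-phase and 55 in the G1 library, a ratio of 1.79 (1.24 to 2.58) that was 3.52 without flanks. Hoxc9 had 73 and 61 reads, a ratio of 1.57 (1.10 to 2.24), and Hoxd9 had 49 and 37, a ratio of 1.73 (1.11 to 2.73). Hoxb9 had 56 and 58 reads and a ratio of 1.26 (0.860 to 1.86).

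Of the other high-numbered genes, Hoxa10, which acts in the uterus and the hindlimb, had 98 reads in the S-phase and 81 in the G1 library, a ratio of 1.58 (1.17 to 2.15). Hoxd10 had 102 and 76, a ratio of 1.76 (1.29 to 2.40). Hoxa13 had 36 and 24, a ratio of 1.96 (1.14 to 3.44) that was 1.16 without flanks and 1.10 with 5 kb flanks. Hoxd13 had 76 and 46, a ratio of 2.16 (1.48 to 3.19) that was 1.36 by covered positions. Among the other group 13 genes, Hoxb13, a gene of the prostate, and Hoxc13, a gene of hair and nails, had ratios of 1.04 and 1.17.

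Fewer of the genes of groups 1 to 8 passed. Hoxa2, which patterns neural crest of the middle ear, had 58 reads in the S-phase and 35 in the G1 library, a ratio of 2.17 (1.40 to 3.40). That ratio was the highest of the 38 and was 1.56 (0.696 to 3.64) by covered positions. Without flanks it was 3.69, from fewer than 50 reads in both libraries together. Hoxa5, a gene of lung development, had 44 and 32, a ratio of 1.80 (1.12 to 2.93). Hoxb4, which expands blood stem cells when overexpressed, had 44 and 38, a ratio of 1.52 (0.959 to 2.40) that was 2.38 by covered positions. Hoxb5, a marker of blood stem cells, had 65 and 50, a ratio of 1.70 (1.16 to 2.51) that was 0.847 without flanks. Hoxc8, a gene of the thoracic and brachial spinal cord, had 59 and 41, a ratio of 1.88 (1.24 to 2.88). Without flanks Hoxd9 was at 0.967, so for it and Hoxb5 the reads above the G1 library lay in the flanks.

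Toward the G1 library, Hoxb1, which specifies the hindbrain segment of the facial nerve, had 38 reads in the S-phase and 88 in the G1 library, a ratio of 0.565 (0.376 to 0.836). Hoxc12 had 20 and 47, a ratio of 0.557 (0.313 to 0.958). By covered positions they were at 0.770 and 0.691, short of 1/1.5. Without flanks Hoxb1 was at 0.924 (0.403 to 2.05), and with 5 kb flanks Hoxc12 was at 0.939 (0.665 to 1.32). Of the genes next in order, Hoxb2, a gene of the hindbrain, had a ratio of 0.785, Hoxa6 0.782 and Hoxa7 0.768, and Hoxd8, Hoxd12 and Hoxc11 had 0.714, 0.890 and 0.967. All 6 intervals held 1. With 5 kb flanks all 6 were above 1, from 1.14 at Hoxd12 to 1.31 at Hoxc11. Without flanks Hoxb2 was at 2.01, Hoxa7 at 1.64, Hoxd12 at 1.68 and Hoxc11 at 1.45, while Hoxa6 was at 0.444 and Hoxd8 at 0.912. The side of these 6 genes was thus not settled.

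By reads and covered positions together, 9 of 38 genes had ratios of at least 1.5 (23.7%), against 7.81% of all genes. Among genes of 50 to 200 reads these were 9 of 32 Hox genes (28.1%), against 14.5%. The 9 are Hoxa2, Hoxa9, Hoxa10, Hoxa13, Hoxb4, Hoxb5, Hoxc8, Hoxd9 and Hoxd10. None was at 1/1.5 or less by both, against 2.16% of all genes and 7.19% of those of 50 to 200 reads. The interval over covered positions lay above 1 at 4 (10.5%), namely Hoxa9, Hoxb4, Hoxc8 and Hoxd10, against 15.3% of all genes. Among genes of 50 to 200 reads these were 4 of 32 Hox genes (12.5%), against 4.99%.

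**Figure D3:**
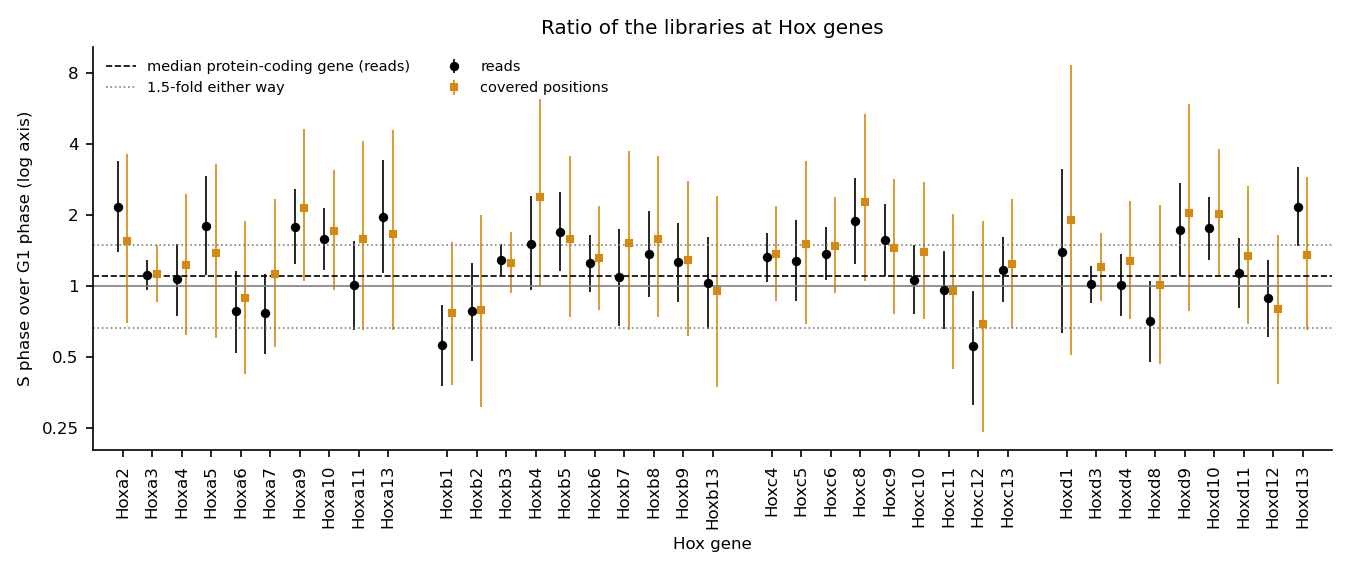
Ratio of the S-phase library to the G1 library at the Hox genes (1 of the 39 not shown) on a log axis, by reads (black) and by covered positions (orange), with conditional exact 95% intervals. The dashed line is the median protein-coding gene at 1.10 and dotted lines mark 1.5-fold. Most points by reads lie above 1, and most intervals hold 1.

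Pooled by reads, the ratio was higher in the genes of high number. Windows of groups 1 to 3 had a ratio of 1.10 (95% interval 1.01 to 1.19), those of groups 4 to 8 had 1.16 (1.06 to 1.27) and those of groups 9 to 13 had 1.31 (1.19 to 1.44). Levels in the S-phase library were alike at 0.321, 0.328 and 0.335, and those in the G1 library were 0.292, 0.282 and 0.257. By covered positions the ratios were 1.16 (0.999 to 1.35), 1.36 (1.15 to 1.61) and 1.37 (1.14 to 1.64), with no step between the last 2 sets. These sets share some reads where windows overlap, and the difference between them was not tested. Single groups did not follow the order. Group 9 had 1.57 (1.30 to 1.89), but group 5 had 1.56 (1.23 to 1.97) and group 2 had 1.36 (0.994 to 1.85). Group 7 had 0.884 (0.656 to 1.19), group 11 had 1.05 (0.844 to 1.29), and group 12 had 0.762 (0.560 to 1.03) from 71 and 122 reads.

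Break ends were spread along the clusters and showed no local peaks. Of 384 bins of 1 kb in the Hox windows, 0 reached 10 times the median of the surrounding 100 kb in either library, against 0.126% of the bins of chromosomes 1-19 in the S-phase and 0.0895% in the G1 library. At that background fewer than 1 such bin would be counted in 384, so a count of 0 is not particular to the clusters. In the G1 library 74 of 384 bins held no read (19.3%), against 9.86% of the bins of chromosomes 1-19. In the S-phase library 34 held none (8.85%), against 7.72%.

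The highest bins differed between the libraries in 3 clusters. Each was chosen as the maximum of 1 library, so the choice favours that library in the comparison. In the library that chose it, each bin rested on 4 to 7 covered positions. In Hoxa the highest bin of the S-phase library lay in Hoxa10 with 19 reads, where the G1 library had 2. In Hoxd the highest bin of the G1 library lay in Hoxd3, a gene of the neck vertebrae, with 35 reads against 4. That of the S-phase library lay at Hoxd13 with 24 reads against 10. In Hoxc the highest bin of the G1 library, next to Hoxc12, had 28 reads against 14, and that of the S-phase library, in Hoxc4, had 25 against 9. In Hoxb both libraries had their highest bin at the same place in Hoxb3, with 24 and 28 reads. The single position with the most reads held 8 to 15 reads in each cluster and library, and at each of these positions the other library had 0. Only 915 positions were covered in the S-phase and 684 in the G1 library over 383.44 kb. With coverage so sparse, a 0 in the other library is the usual case and marks no difference.

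In 5 kb bins, levels in the Hox windows ran from 0.0876 to 0.545 in the S-phase and from 0.0595 to 0.521 in the G1 library. The level was higher in the S-phase library in 53 of 77 bins, against 50.2% of the 5 kb bins of chromosomes 1-19 with at least 10 reads. That background is not matched for gene density. The median 100 kb window of chromosomes 1-19 had a ratio of 1.01, and that with at least 5 protein-coding genes 1.14. By cluster, the Hox bins higher in the S-phase library were 15 of 20 in Hoxa, 14 of 20 in Hoxb, 14 of 19 in Hoxc and 10 of 18 in Hoxd. The highest bin within 100 kb of the clusters lay outside them, 185 to 190 kb from the group 1 end of the Hoxd cluster (chr2:74577143-74582142), with 1.44 in the S-phase (148 reads) and 1.03 in the G1 library (138 reads). It holds the start of Lnpk.

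The 500 kb on each side of a cluster had a higher level than its Hox windows at all 4 clusters and in both libraries. Pooled, the 500 kb on each side had 0.402 RPKM in the S-phase and 0.366 in the G1 library, and the nearest 100 kb had 0.352 and 0.348. Around Hoxa the nearest 100 kb had 0.337 in the S-phase library, below the 0.357 of the cluster. The ratio between the libraries was 1.098 (95% interval 1.08 to 1.11) over 500 kb and 1.01 (0.978 to 1.05) over 100 kb, against 1.18 in the Hox windows. Around Hoxd the 500 kb on each side had a ratio of 0.994 (0.965 to 1.03), below that of the cluster at 1.17 (1.05 to 1.32). Around Hoxc they had 1.21 (1.17 to 1.24), close to the 1.24 of the cluster. The space between Hox windows inside the clusters, 124.657 kb and mostly that between Hoxb9 and Hoxb13, had 0.367 and 0.323 with a ratio of 1.14 (1.04 to 1.24).

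Strands were balanced over the clusters as a whole. The single end left by a fork that breaks would put its reads on 1 strand, and an ordinary break, with an end on each side, on both. A pooled share cannot tell these apart, because single ends on opposite strands at different places would also balance. The plus strand held 51.1% of the Hox reads in the S-phase library (95% Clopper-Pearson interval 49.1% to 53.0%) and 49.8% in the G1 library (48.0% to 51.7%), against 49.4% and 49.3% of the reads on chromosomes 1-19. In Hoxd the share was 52.3% and 44.7%, and the ratio between the libraries was 1.37 (1.16 to 1.63) on the plus strand and 1.01 (0.860 to 1.19) on the minus strand. By covered positions the Hoxd shares were 52.3% (45.1% to 59.4%) and 46.9% (38.7% to 55.3%), both intervals holding 50%. By reads the Hoxd interval in the G1 library was 40.7% to 48.7%, off 50%. In Hoxa the shares by reads were 45.8% (42.1% to 49.5%) and 47.8% (44.2% to 51.3%), and in Hoxb 54.2% (50.3% to 58.1%) and 53.6% (50.006% to 57.2%). By covered positions these intervals of Hoxa and Hoxb held 50% in both libraries. In Hoxc the shares by reads were 52.9% and 52.8%, with 50% inside both intervals.

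The interval of the strand share at single genes left 50% at 9 of 38 Hox genes in the S-phase library (23.7%), against 38.5% of all genes, and at 14 of 38 in the G1 library (36.8%), against 43.5%. Among genes of 50 to 200 reads the shares were 28.1% of 32 Hox genes against 29.9% in the S-phase library, and 40.6% against 37.9% in the G1 library, near the background. Hoxa10 had a plus-strand share of 26.5% in the S-phase and 27.2% in the G1 library, and Hoxa5 had 70.5% and 75.0%, each on the same side in both. Hoxb5 had 76.9% and 26.0%, and Hoxc5 had 71.7% and 33.3%, on opposite sides. At Hoxd9 8.11% of the reads of the G1 library were on the plus strand, from 37 reads on 7 positions.

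The genes that work with or on Hox genes were compared by their medians, with lists chosen with results of these data known. The 49 other homeobox genes of development, which lie outside the clusters and likewise are targets of Polycomb complexes, had a median of 0.327 in the S-phase and 0.267 in the G1 library and a median ratio of 1.23. Hox genes had medians of 0.330 and 0.266 and a ratio of 1.21. The difference between both families was not tested. Of the 49, 11 had a ratio of at least 1.5 (22.4%), against 12.1% of all genes and 21.0% of those of 50 to 200 reads. A ratio of 1/1.5 or less was found at 5 (10.2%), against 4.36% and 13.4%. Nkx2-5, the heart factor, had 99 and 53 reads and a ratio of 2.44 (1.73 to 3.48), and Nkx6-1, a factor of pancreas and spinal cord, had 62 and 35 and a ratio of 2.32 (1.51 to 3.62). Msx1, a gene of tooth and palate, had 28 and 76 and a ratio of 0.482 (0.301 to 0.753), and Otx2, a gene of forebrain and eye, had 50 and 127 and a ratio of 0.515 (0.364 to 0.720).

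The 9 cofactors that bind DNA with Hox proteins had medians of 0.355 and 0.318 and a median ratio of 1.11. None of the 9 passed 1.5-fold, against 12.1% of all genes upward and 4.36% downward. Cofactor ratios ran from 0.866 (0.805 to 0.930) at Meis2 and 0.911 (0.685 to 1.21) at Meis3 to 1.21 (1.14 to 1.29) at Pknox2 and 1.34 (1.15 to 1.56) at Pbx4. The 28 Polycomb genes, whose products keep Hox genes off, had medians of 0.498 and 0.425 and a median ratio of 1.20. Of the 28, 4 were at 1.5 or more (14.3%, against 12.1% of all genes) and none at 1/1.5 or less (against 4.36%). Cbx8, a reader of the Polycomb mark, had 343 reads in the S-phase and 223 in the G1 library, a ratio of 2.01 (1.70 to 2.39). Pcgf2 of the complex PRC1 had a ratio of 1.71 (1.38 to 2.12), and the lowest were Cbx6 at 0.896 (0.701 to 1.14) and Mtf2 at 0.922 (0.810 to 1.05).

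The 11 Trithorax genes, whose products keep Hox genes on, had medians of 0.416 and 0.367 and a median ratio of 1.18. Of the 11, 2 were at 1.5 or more (18.2%, against 12.1% of all genes). Those 2 were Kdm6b, which removes the Polycomb mark, at 1.60 (1.40 to 1.84) and Dpy30, a subunit of the histone H3K4 methyltransferases, at 1.56 (1.28 to 1.90). The lowest were Ash2l at 0.807 (0.678 to 0.958) and Kmt2c at 0.874 (0.825 to 0.926). The 32 widely active genes, of which 26 have promoters in the table (38, of them 33 CpG-rich), had medians of 0.984 and 0.748, above the Hox genes in both libraries, and a median ratio of 1.36. Of them, 9 had a ratio of at least 1.5 (28.1%, against 12.1% of all genes) and 0 a ratio of 1/1.5 or less (against 4.36%). Srsf2, a splicing factor, had the highest ratio at 2.24 (1.71 to 2.94), followed by Pfn1, an actin-binding protein, at 2.04 (1.60 to 2.62), and the chaperone Hsp90ab1 and the isomerase Ppia had 0.886 (0.727 to 1.08) and 0.924 (0.704 to 1.21).

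**Figure D4:**
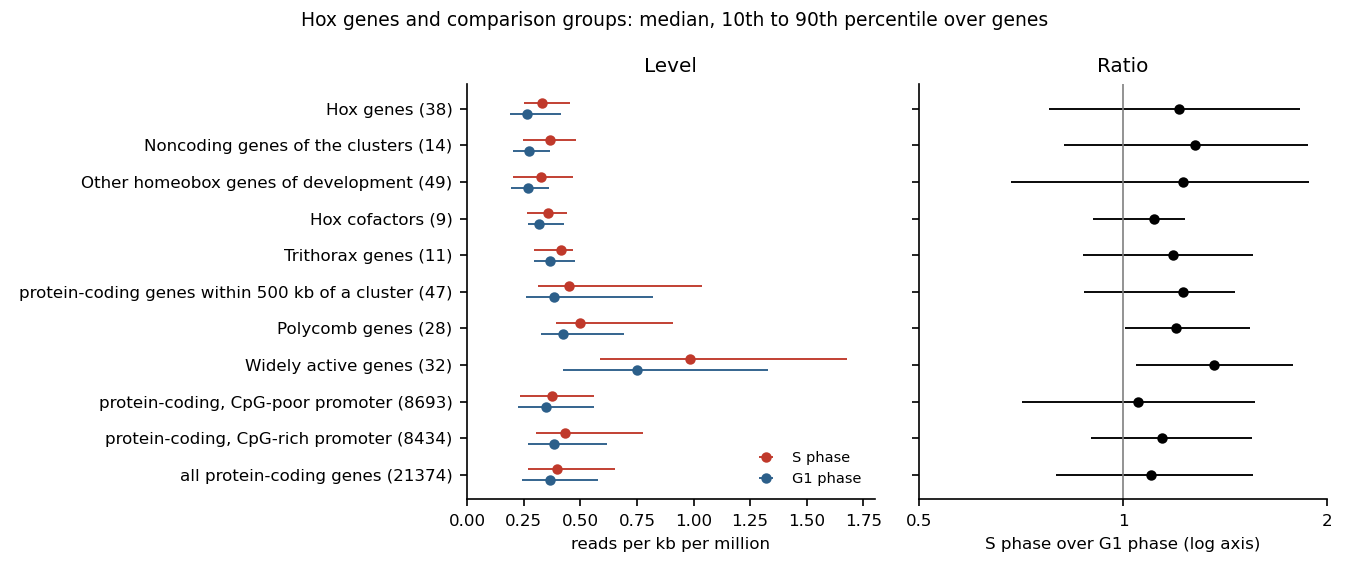
Level in each library (left, RPKM) and ratio of the S-phase library to the G1 library (right, log axis) over the genes of each list with at least 50 reads, whose number is in parentheses. Points are medians and bars run from the 10th to the 90th percentile over genes. Hox genes and other homeobox genes have the lowest median levels in both libraries, and the widely active genes the highest at 0.984 and 0.748.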

How the data were processed

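The authors deposited 4 files, 1 for each strand of each library. They are bedGraph tracks, and the deposited values are counts of read ends at single bases, not normalized, per the file headers. The submitters' processing notes name the build mm10 and the tools Bowtie 1.1.2, SAMtools 1.11 and bedtools. How duplicate or multiply mapping reads were handled is not given in the sources used here.

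Sums were made in Python 3.11.15 (numpy 2.4.6, pandas 2.3.3), intervals in scipy 1.17.1 and plots in matplotlib 3.10.9. RPKM levels here were computed from the deposited counts, per kb and per 1000000 reads on chromosomes 1-19. Ratios carry a 95% interval for 2 Poisson counts (conditional, exact), and strand shares the exact Clopper-Pearson interval. Genes needed at least 50 reads in both libraries together, and were called from a ratio of 1.5 up or from 1/1.5 down. The ratio interval was tested on simulated Poisson counts without stacked reads, and the call on simulated gene counts with stacked reads. The strand interval was not tested on simulated data. The gene table gives no strand, so flanks are on both sides.

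Members, gene lists and rules were chosen with earlier results of these data known. Named by rule were every member past 1.5-fold, the 2 highest and 2 lowest ratios of each cluster, of each list and of the flanks, the member with the most reads per kb, and the highest bins and positions. The values of 1 Hox gene are not reported here, though it is among the 39 counted. Alternatives covered the scaling, stacked reads, flanks, strand, minimum of reads, thresholds and window sizes.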

Additional observations from a re-analysis of the deposited data

How the results depend on the processing

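With 1 library per group no replicate could be left out. No paired analysis was possible because each group holds 1 library. The pooled Hox ratio, 1.18, was 1.08 scaled to the median protein-coding gene and 1.27 with positions counted once. The Hoxd ratio was 1.37 on the plus strand alone and 1.01 on the minus strand alone. The count at 1.5 or more, 12 of 38, was 6 of 22 without flanks (11.9% of all genes there), 6 of 39 with 5 kb flanks (8.53%), 7 of 27 at a minimum of 100 reads (11.1%) and 2 of 38 at 2-fold (2.57%). The count at 1/1.5 or less, 2 of 38, was 0 with positions counted once (3.36%), 1 of 22 without flanks (3.71%), 0 of 39 with 5 kb flanks (2.67%), 1 of 27 at a minimum of 100 reads (3.39%), 0 at 2-fold (1.16%), 6 at the lower threshold tried (10.1%) and 0 by reads and positions together. The 1 gene without flanks was Hoxa6, at 0.444, not Hoxb1 or Hoxc12. The count with an interval above 1, 14 of 38, was 4 by positions (15.3%) and 6 of 22 without flanks (33.0%). The count below 1, 2 of 38, was 0 by positions (3.19%), 1 of 22 without flanks (11.4%) and 1 of 27 at a minimum of 100 reads (11.1%). The Hox level was 0.351 in the S-phase and 0.298 in the G1 library with stacked reads capped, and 0.265 in the G1 library by positions. The ratio of the flanks was 1.01 over 100 kb and 1.13 by positions. The promoter ratio was 1.65 with 500 bases on each side. At 5 times the local median 1 of 384 Hox bins was a peak in the G1 library, against 0.456% of the bins of chromosomes 1-19. Without flanks, Hoxb5 was at 0.847 and Hoxd9 at 0.967. The cause of these changes was not tested. The alternative "by reads and by positions" and the starts of all 39 gene models were added after seeing the data. Hoxc12 had 0 reads in the G1 library without flanks, so it gave no ratio there.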

Other observations

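The noncoding genes listed lie in or near the clusters. Most of their windows overlap those of Hox genes and share their reads, but those of Halr1, Hotair and Mir196a-1 overlap none. Halr1 lies outside the Hoxa cluster and, at a ratio of 1.87 (1.40 to 2.51), is among the genes counted at 1.5 or more. Of 16 listed, 14 had at least 50 reads, with a median of 0.366 RPKM in the S-phase and 0.272 in the G1 library and a median ratio of 1.28. Of the 14, 5 were at 1.5 or more (35.7%), against 12.1% of all protein-coding genes and 21.0% of those of 50 to 200 reads. At 1/1.5 or less was 1 (7.14%), against 4.36% and 13.4%. Hottip, a long noncoding RNA at the Hoxa13 end, had 65 and 45 reads and a ratio of 1.89 (1.27 to 2.83), and the microRNA gene Mir196b had 33 and 23 and a ratio of 1.88 (1.07 to 3.35). Hoxa11os, antisense to Hoxa11, had 29 and 59 reads and a ratio of 0.643 (0.398 to 1.02), and Mir10b had 31 and 51 and a ratio of 0.796 (0.492 to 1.27).

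The 47 protein-coding genes within 500 kb of a cluster had medians of 0.448 and 0.383 and a median ratio of 1.23. Of them, 1 was at 1.5 or more (2.13%, against 12.1% of all genes) and 0 at 1/1.5 or less (against 4.36%). The 1 gene was Nckap1l, a gene of the actin cytoskeleton of blood cells near the Hoxc cluster, at a ratio of 1.52 (1.32 to 1.74) from 460 and 397 reads. Next to it in ratio, both at 1.496, were B4galnt2 (1.31 to 1.71, from 496 and 434 reads) and Gpr84 (0.968 to 2.32, from 48 and 42 reads), and the lowest were Gtsf2 at 0.722 (0.557 to 0.932) and Prr13 at 0.752 (0.528 to 1.06). Evx2, the homeobox gene adjoining Hoxd13, had 0.319 in the S-phase and 0.252 in the G1 library, near the Hox level, and Mtx2 at the other end of the Hoxd cluster had 0.448 and 0.498.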
